A study of Mus musculus with 24 samples.

Results

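Kidneys of control mice, 6 from males (Ctrl_M) and 6 from females (Ctrl_F), were compared across autosomal genes. They are 12 of the 24 kidneys of a study of Pex5, the gene of the receptor that imports enzymes into peroxisomes, and they were chosen by their labels. The mice of both sexes carried the floxed allele (Pex5lox/lox) on a C57BL/6J background and had no Pax8-rtTA or LC1 transgene, so that Pex5 was not deleted. Like their littermates with the transgenes, they were 8 weeks old when doxycycline (DOX) was started for 2 weeks, and whole kidneys were taken 4 weeks after its end. The other 12 kidneys came, 6 from each sex, from Pex5lox/lox/Pax8-rtTA/LC1 mice (KO_M and KO_F, together cKO), in which DOX and the Pax8 promoter delete Pex5 in the renal tubule. The labels give ZT9, in hours after lights on, as the time of tissue collection and ZT3 as the time of experiments in general. The sexes may also have differed in cage, litter or day of dissection, which the labels do not give and which cannot be told apart from sex.

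The kidney clears drugs, toxins, urate and hormone metabolites largely through the proximal tubule. This segment takes organic ions from blood by carriers of the Slc22 and Slco families, modifies them with cytochrome P450 enzymes and conjugating transferases, and passes them on through ABC pumps and brush border carriers. In mice the proximal tubule is a classic target of androgens, which also set the male pattern of growth hormone release. Estrogens, prolactin and the steadier female pattern of growth hormone act on other genes of the same cells.

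The files assigned 19704446 to 28470831 reads of each control kidney to genes. The median was 21603949 in Ctrl_M and 22569484 in Ctrl_F. A floor of 3 counts was 0.105 CPM (counts per 1e6 reads on genes) in the deepest kidney and 0.152 CPM in the shallowest, for counting error only. The levels given below in CPM were also scaled between kidneys by TMM, with factors of 0.915 to 1.148 in control kidneys. Of 55335 genes in the files, 13561 autosomal genes reached at least 1 CPM in at least 6 of the 12 kidneys and were tested. The labelled sex matched the reads in every kidney. Xist, the RNA that silences an X chromosome, had 389 to 1063 CPM in Ctrl_F and 0.31 to 2.7 CPM in Ctrl_M kidneys, and the Y-linked Ddx3y had 56.5 to 74.7 CPM in Ctrl_M and at most 0.3 CPM in Ctrl_F kidneys. Pex5 had 48.9 to 62.6 CPM in Ctrl_M (median 52.8) and 43 to 61.4 CPM in Ctrl_F kidneys (median 47.9), and its log2 difference was 0.11 (SE 0.10, edgeR adjusted p = 0.55).

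Several kidneys stood apart from the others of their sex. The summed level of 15 hepatocyte markers, 12 of them tested, was 905 to 1381 CPM in Ctrl_M1 to Ctrl_M4, 373 CPM in Ctrl_M5, 418 CPM in Ctrl_M6 and 339 to 642 CPM in the 6 Ctrl_F kidneys, and none of the 15 was at 0 in all kidneys. Counts of genes are therefore also given for a comparison of Ctrl_M5 and Ctrl_M6 with the 6 females, called the comparison with 2 males, and for a fit with the mean log2 level of these markers as a covariate. Ctrl_F1 had 1432 CPM summed over 27 interferon-stimulated genes, whereas the other 11 kidneys had 302 to 418 CPM. Its 8 macrophage markers summed to 1237 CPM, against 211 to 386 CPM in the others. Ctrl_F6 had 558 CPM of adipocyte markers against 40.0 to 172 CPM elsewhere. Ctrl_M5 and Ctrl_F4 lay together at the low end of the second principal component. Myh4, a skeletal muscle myosin gene, was picked after its values were seen. It had 11.8 CPM in Ctrl_M5 against 0 to 1.87 CPM in the other males. In Ctrl_F4 it had 273 CPM against 0 to 41.5 CPM in the other females, so that another female was above Ctrl_M5. No other female scored below -1.33 on that component, and a link between Myh4 and the component was not tested. The first component, with 41.0% of the variance over the tested genes, separated the 6 males from the 6 females, and the second held 12.6%.

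**Figure D1:**
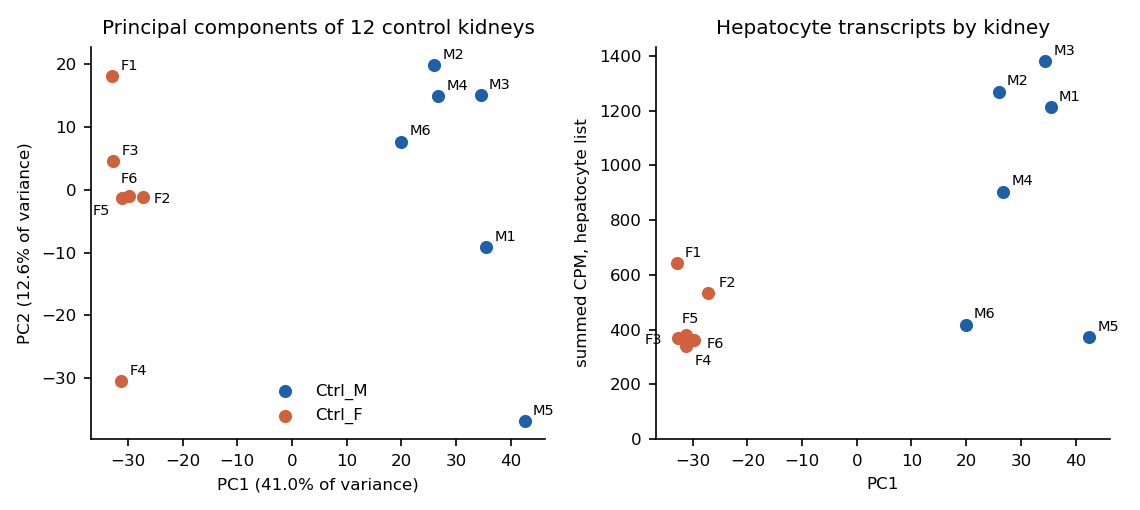
Left, scores of the 12 control kidneys on the first and second principal components of log2 CPM over 13561 genes, with males in blue and females in orange. The sexes lie on opposite sides of the first component (41.0% of variance), and Ctrl_M5 and Ctrl_F4 lie lowest on the second. Right, summed CPM of the hepatocyte markers against the first component, where 4 males are at 905 to 1381 CPM and the other 8 kidneys at 339 to 642 CPM.

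Sex was associated with the level of 1872 of the 13561 genes (13.8%) by edgeR's quasi-likelihood test with Benjamini-Hochberg adjustment at a threshold of 0.05. In males 953 genes (7.03%) were higher and in females 919 (6.78%), and 3497 genes had an unadjusted p under 0.05. Log2 differences are given as males minus females throughout, so that a negative value is higher in females. The median was 0.58 over the male-higher and -0.59 over the female-higher genes, and -0.03 over all tested genes. A difference of at least 1 was seen for 261 male-higher and 196 female-higher genes, and one of at least 3 for 45 and 26. The 6 male and 6 female values did not overlap for 1079 genes (7.96%). In a two-sided exact permutation test of 6 kidneys against 6 the smallest possible p is 0.00216. Of the tested genes 12234 reached 1 CPM in all 12 kidneys, 15 in no female kidney and 26 in no male kidney. In bulk tissue, fewer cells of a type and less RNA per cell cannot be told apart. With Ctrl_M5 and Ctrl_M6 as the only males 714 genes differed, 414 higher in males and 300 higher in females (5.27% of all genes). With the hepatocyte covariate 672 differed (4.96%), 378 and 294. The sign was kept for at least 99% of the called genes of each direction in both settings, and the 12 largest differences named for each sex were called in both. Over the male-higher and female-higher genes, the median differences were 0.63 and -0.61 with 2 males and 0.57 and -0.60 with the covariate. The covariate was 4.69 to 5.17 in Ctrl_M1 to Ctrl_M4 and 0.77 to 2.44 in the females, so it overlaps in part with sex. Both settings reuse kidneys that gave the calls, so these results are no independent check.

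**Figure D2:**
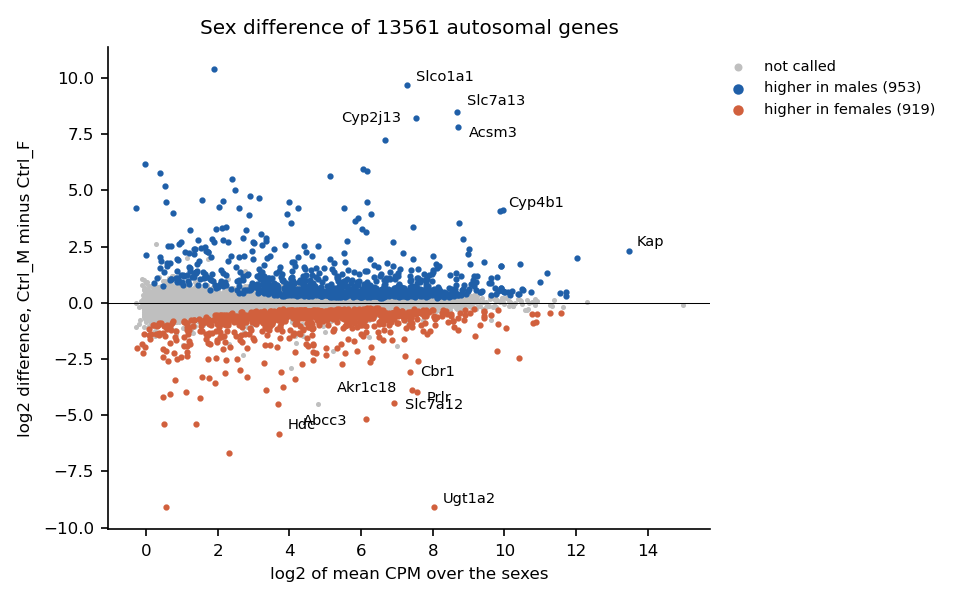
Log2 difference between Ctrl_M and Ctrl_F kidneys against the log2 of the mean CPM over both sexes, 1 point per tested gene. Genes called higher in males are blue (953), those higher in females orange (919) and all others gray, and the named points range from Slco1a1 at 9.68 to Ugt1a2 at -9.09.

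For each sex the 12 largest differences are named among called genes with at least 10 CPM in that sex and no overlap between the sexes, so that the lack of overlap was a condition of the choice. In males the 12 were Slco1a1, Slc7a13, Cyp2j13, Acsm3, Pzp, Ugt2b37, Cyp7b1, Cyp4a12a, Apoh, Gm45645, Slc22a30 and Serpina1b, with log2 differences from 9.68 to 4.47. Called genes that overlapped, such as Serpina3k at 4.66, are not among them. In females they were Ugt1a2, Hdc, Abcc3, Slc17a2, Slc7a12, Prlr, Ugt1a1, Akr1c18, Ccdc170, Slc22a29, Cbr1 and Gm10639, from -9.09 to -3.08. The males were not alike in these genes. Ctrl_M6 was the lowest male for 8 of the 12 male-higher genes and the highest male for 6 of the 12 female-higher ones, and Ctrl_F2 was the highest female for 7 of the male-higher genes.

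The sequence just upstream of the start is shown for the 3 genes of each direction with the largest difference that have an entry in the RefSeq table used here, as the stretch in which sites for hormone-responsive factors might be looked for. Each is 250 bases of GRCm38.p6, 5' to 3' on the gene's own strand, in lower case, with capitals for a match to AGAACA (a half-site of steroid hormone receptors, read on either strand) or to TTCNNNGAA (STAT5). Slco1a1 (gene at chromosome 6, 141907282 to 141946962, minus strand) has the window chr6:141946963-141947212, Cyp2j13 (gene at chromosome 4, 96027534 to 96077546, minus strand) the window chr4:96077548-96077797, and Acsm3 (gene at chromosome 7, 119760923 to 119787513, plus strand) the window chr7:119760673-119760922. None of these holds either motif.
Slco1a1: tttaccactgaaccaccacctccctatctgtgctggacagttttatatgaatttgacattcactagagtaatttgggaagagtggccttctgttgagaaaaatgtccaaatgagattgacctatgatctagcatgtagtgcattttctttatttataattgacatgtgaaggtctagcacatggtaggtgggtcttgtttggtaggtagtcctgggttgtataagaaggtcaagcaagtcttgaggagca
Cyp2j13: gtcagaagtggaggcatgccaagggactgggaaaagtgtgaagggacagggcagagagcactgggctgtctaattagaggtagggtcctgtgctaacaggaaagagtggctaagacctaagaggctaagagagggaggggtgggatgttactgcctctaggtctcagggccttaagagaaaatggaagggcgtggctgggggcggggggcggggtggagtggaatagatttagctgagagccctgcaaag
Acsm3: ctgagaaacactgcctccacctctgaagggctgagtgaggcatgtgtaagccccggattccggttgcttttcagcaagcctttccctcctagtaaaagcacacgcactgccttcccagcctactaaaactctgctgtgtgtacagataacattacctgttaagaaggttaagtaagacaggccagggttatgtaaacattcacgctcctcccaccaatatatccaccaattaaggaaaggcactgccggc
Among the female-higher genes, Ugt1a2 (gene at chromosome 1, 88200601 to 88218997, plus strand) has the window chr1:88200361-88200610, Hdc (gene at chromosome 2, 126593667 to 126619299, minus strand) the window chr2:126618679-126618928 and Slc17a2 (gene at chromosome 13, 23806993 to 23825180, plus strand) the window chr13:23806743-23806992. The start of Hdc in the RefSeq table lies 621 bases downstream of that of the gene annotation, so its window lies inside the annotated gene. The window of Ugt1a2 runs 10 bases into the annotated gene. Hdc holds the half-site once and Slc17a2 the STAT5 motif once.
Ugt1a2: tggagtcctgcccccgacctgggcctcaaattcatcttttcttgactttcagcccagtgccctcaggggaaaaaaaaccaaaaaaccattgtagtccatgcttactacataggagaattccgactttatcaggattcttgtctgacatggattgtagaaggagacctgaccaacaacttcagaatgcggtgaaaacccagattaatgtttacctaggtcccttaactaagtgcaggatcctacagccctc
Hdc: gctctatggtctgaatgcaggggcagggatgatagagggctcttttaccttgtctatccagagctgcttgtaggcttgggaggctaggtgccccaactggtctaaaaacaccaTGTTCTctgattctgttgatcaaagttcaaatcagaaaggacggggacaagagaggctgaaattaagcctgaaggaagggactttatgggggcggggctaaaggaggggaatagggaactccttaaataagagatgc
Slc17a2: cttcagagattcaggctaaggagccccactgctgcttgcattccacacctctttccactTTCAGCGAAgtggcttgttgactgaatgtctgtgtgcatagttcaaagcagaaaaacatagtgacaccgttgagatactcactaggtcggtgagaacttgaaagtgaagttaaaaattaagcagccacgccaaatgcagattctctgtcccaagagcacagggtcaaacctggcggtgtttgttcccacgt
Over all genes with an entry (10296 of the 13561 tested), the half-site was found in 12.8% of male-higher, 11% of female-higher and 10.5% of all promoters of this length. TTCNNNGAA was found in 5.17%, 6.10% and 6.02%. The whole palindrome of 2 such half-sites was in 1 promoter, of a gene that was not called, and the palindromes of the estrogen receptor and HNF1 were in none. A match is a description of these letters only.

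Slco1a1 encodes an organic anion carrier of the proximal tubule brush border. It had 206 to 506 CPM in Ctrl_M (median 273) and 0 to 1.98 CPM in Ctrl_F kidneys (median 0.0874), a log2 difference of 9.68 (SE 0.62, edgeR adjusted p = 2.1e-08). Among the females Ctrl_F2 held the 1.98 CPM and the other females at most 0.128 CPM. The female median lay below the floor of 3 counts, so the size of the log2 difference of Slco1a1 is imprecise. Slc7a13, which takes up cystine and acidic amino acids in the last part of the proximal tubule, had 651 to 952 CPM in Ctrl_M (median 822) and 0.668 to 5.99 CPM in Ctrl_F kidneys (median 1.36), a difference of 8.51 (SE 0.43, edgeR adjusted p = 1.3e-09). The epoxygenase gene Cyp2j13 had 216 to 516 CPM in Ctrl_M (median 389) and 0.477 to 2.77 CPM in Ctrl_F kidneys (median 0.803), a difference of 8.22 (SE 0.38, edgeR adjusted p = 5.5e-10). Acsm3, for a synthetase that activates medium-chain fatty acids, had 486 to 1147 CPM in Ctrl_M (median 868) and 0.954 to 6.25 CPM in Ctrl_F kidneys (median 3.12), a difference of 7.83 (SE 0.39, edgeR adjusted p = 7.9e-10). All 4 genes were below 10 CPM in every female.

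Other male-higher genes encode proteins that are better known from liver. Pzp, an inhibitor of proteases, had 141 to 242 CPM in Ctrl_M (median 207) and 0.471 to 2.82 CPM in Ctrl_F kidneys (median 1.06), a difference of 7.23 (SE 0.32, edgeR adjusted p = 2.3e-10). Apoh, a phospholipid-binding plasma protein, had 3.55 to 14.5 CPM in Ctrl_M (median 11.4) and 0 to 0.925 CPM in Ctrl_F kidneys (median 0.091). Serpina1b, of the alpha-1-antitrypsin cluster, had 16.3 to 44.3 CPM in Ctrl_M (median 30.9) and 0.53 to 2.73 CPM in Ctrl_F kidneys (median 1.27), and its reads may be shared with near-identical neighbors of that cluster. No female was above 2.82 CPM for any of these 3. With Ctrl_M5 and Ctrl_M6 as the only males, differences of 7.06, 4.90 and 4.08 remained for Pzp, Apoh and Serpina1b (edgeR adjusted p = 1.4e-06, 0.00282 and 1.2e-04), against 7.23, 5.52 and 4.47 with all 6. Gm45645, with no assigned name, had 5.75 to 14.6 CPM in Ctrl_M (median 10.9) and 0 to 0.91 CPM in Ctrl_F kidneys (median 0.238), a difference of 5.0 (SE 0.47, edgeR adjusted p = 1.3e-06).

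In females the largest difference was that of Ugt1a2, a glucuronosyltransferase that attaches glucuronic acid to substrates for excretion. It had 394 to 641 CPM in Ctrl_F (median 544) and 0.196 to 2.13 CPM in Ctrl_M kidneys (median 0.853), a difference of -9.09 (SE 0.37, edgeR adjusted p = 8.8e-11). Ugt1a1, the bilirubin-conjugating member of the same locus, had 13.2 to 25.2 CPM in Ctrl_F (median 17.9) and 0.206 to 2.23 CPM in Ctrl_M kidneys (median 1.22), a difference of -3.89 (SE 0.36, edgeR adjusted p = 1.1e-06). The genes of this locus share their last exons, so reads there could not be assigned to 1 member. Hdc, the enzyme that makes histamine from histidine, had 15.8 to 35.8 CPM in Ctrl_F (median 26.2) and 0.103 to 0.995 CPM in Ctrl_M kidneys (median 0.325), a difference of -5.81 (SE 0.35, edgeR adjusted p = 8.9e-09). Cbr1, a carbonyl reductase, had 218 to 332 CPM in Ctrl_F (median 301) and 28.3 to 42.7 CPM in Ctrl_M kidneys (median 34), a difference of -3.09 (SE 0.12, edgeR adjusted p = 8.8e-11). In males Ugt1a2, Ugt1a1 and Hdc were at 2.23 CPM or less in each kidney, whereas Cbr1 was at 28.3 CPM or more. Ccdc170, for a coiled-coil protein, and Gm10639 had differences of -3.76 and -3.08.

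**Figure D3:**
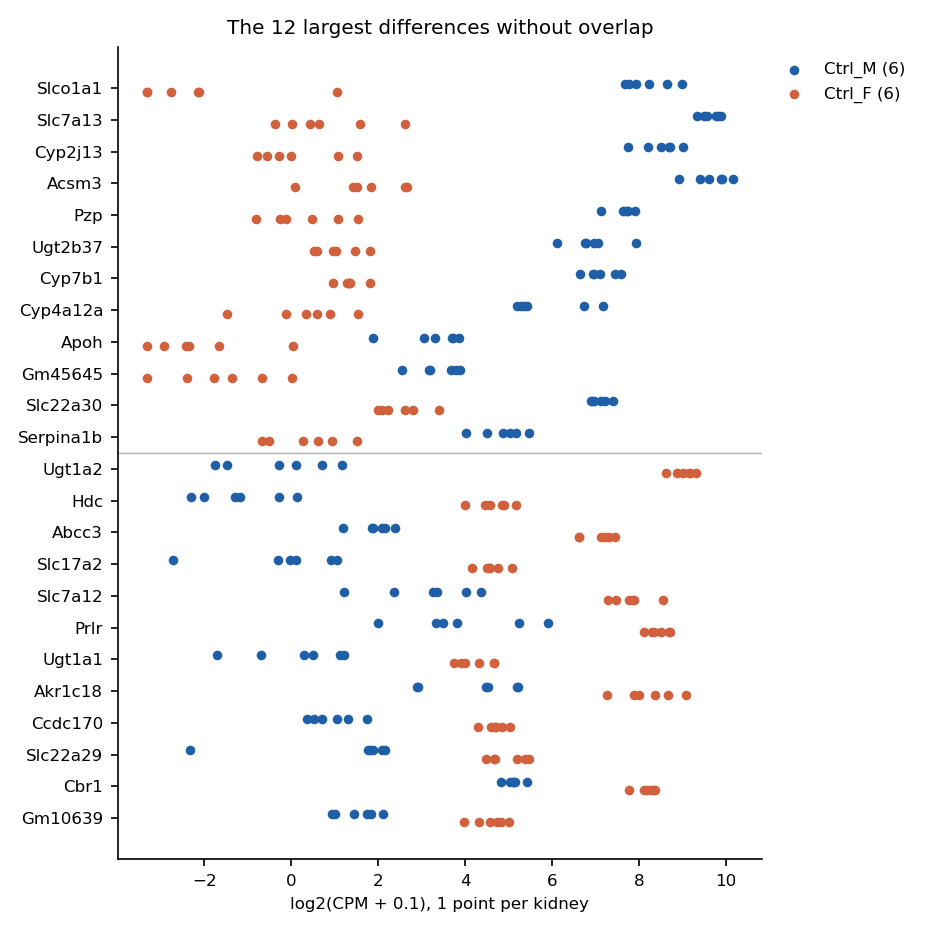
Level of the 12 called genes with the largest difference in each direction among those without overlap between the sexes and with at least 10 CPM in the higher sex, as log2(CPM + 0.1) with 1 point per kidney, males in blue and females in orange. The horizontal line parts male-higher from female-higher genes. Of the male points for Prlr the highest is 59.9 CPM, against 276 CPM in the lowest female.

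A list of 16 genes known as androgen-induced in mouse kidney was looked at as a group. Like the other lists it was written with earlier results of these data known, so its calls are no independent check. Beside the counts of every list stand the shares over all genes, 7.03% called higher in males and 6.78% in females. In either direction the share was 13.8%, and it was 5.27% with 2 males and 4.96% with the hepatocyte covariate. All 16 were tested and all were higher in males, with a median log2 difference of 4.10, where 7.03% of all genes were called in that direction. Kap, the kidney androgen-regulated protein, had 13453 to 30467 CPM in Ctrl_M (median 17410.0) and 2891 to 5769.9 CPM in Ctrl_F kidneys (median 3434), a difference of 2.32 (SE 0.21, edgeR adjusted p = 1.0e-06). Ctrl_M5 held the highest level. Odc1, the first enzyme of polyamine synthesis, had 723 to 2471 CPM in Ctrl_M (median 1428) and 391 to 610.2 CPM in Ctrl_F kidneys (median 453), a difference of 1.62 (SE 0.24, edgeR adjusted p = 1.7e-04). The coenzyme A hydrolase gene Nudt19 and Gusb, the lysosomal beta-glucuronidase, are long known for their induction by testosterone. Nudt19 had 335 to 826 CPM in Ctrl_M (median 503) and 208 to 364 CPM in Ctrl_F kidneys (median 243), a difference of 1.06 (SE 0.21, edgeR adjusted p = 0.00191), and Gusb had 32.9 to 52.9 CPM in Ctrl_M (median 46.3) and 26.6 to 36 CPM in Ctrl_F kidneys (median 28.5), a difference of 0.59 (SE 0.12, edgeR adjusted p = 0.00389). Unlike most of the list, these last 2 overlapped between the sexes (two-sided exact permutation test, p = 0.00433 for each). Adh1, an alcohol dehydrogenase, had 290.5 to 578 CPM in Ctrl_M (median 392) and 71.6 to 127 CPM in Ctrl_F kidneys (median 95.2), a difference of 2.06 (SE 0.17, edgeR adjusted p = 3.2e-07). All 16 were also called with Ctrl_M5 and Ctrl_M6 as the only males and with the hepatocyte covariate.

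A list of 7 genes reported as female-higher in rodent kidney gave a mixed picture. Of these, 5 were higher in females, 1 was higher in males and 1 was not called, with a median of -3.86 (1 higher in males and 4 in females in the comparison with 2 males), where 6.78% of all genes were called higher in females. Prlr, the prolactin receptor, had 276 to 423 CPM in Ctrl_F (median 346) and 3.87 to 59.9 CPM in Ctrl_M kidneys (median 12.6), a difference of -3.95 (SE 0.50, edgeR adjusted p = 3.0e-05). The 6 males spread widely. Akr1c18, the reductase that inactivates progesterone, had 155 to 546 CPM in Ctrl_F (median 293) and 7.33 to 37 CPM in Ctrl_M kidneys (median 22.6), a difference of -3.86 (SE 0.42, edgeR adjusted p = 7.0e-06). Cyp4a14, a fatty acid hydroxylase, had 277 to 429 CPM in Ctrl_F (median 306) and 5.67 to 216 CPM in Ctrl_M kidneys (median 19.6), a difference of -2.58 (SE 0.66, edgeR adjusted p = 0.014). The male maximum was Ctrl_M6, and the other 5 males had 5.67 to 56.1 CPM. Without Ctrl_M6 the difference was -3.84 (edgeR adjusted p = 1.9e-05). With Ctrl_M5 and Ctrl_M6 as the only males it was -1.57 and was not called (edgeR adjusted p = 0.324). Its neighbor Cyp4a10 had 311 to 518 CPM in Ctrl_F (median 364) and 197 to 591 CPM in Ctrl_M kidneys (median 233), overlapping between the sexes and not called, at -0.30 (SE 0.24, edgeR adjusted p = 0.486). Cyp2a4, a steroid 15-alpha-hydroxylase on the same list, was higher in males, with 630.1 to 1228 CPM in Ctrl_M (median 718) and 169 to 314 CPM in Ctrl_F kidneys (median 254) and a difference of 1.73 (SE 0.18, edgeR adjusted p = 3.5e-06). It is closely related to Cyp2a5, so that reads may be divided between the 2 genes.

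Receptors and signaling genes of sex steroids, growth hormone and prolactin were called in both directions. Of 26 genes 23 were tested, 4 were higher in males and 3 in females, and the median was -0.13 (2 higher in males and 2 in females in the comparison with 2 males). Socs2, a feedback inhibitor of growth hormone signaling, had 35.6 to 62.6 CPM in Ctrl_F (median 52.8) and 5.57 to 21.1 CPM in Ctrl_M kidneys (median 13.3), a difference of -1.99 (SE 0.25, edgeR adjusted p = 3.0e-05). Bcl6, a transcriptional repressor, had 23.9 to 115 CPM in Ctrl_M (median 54.8) and 10.5 to 28.2 CPM in Ctrl_F kidneys (median 14.6), a difference of 1.78 (SE 0.32, edgeR adjusted p = 0.00115). Fkbp5, a cochaperone of steroid receptors that they induce, had 37.9 to 97.9 CPM in Ctrl_M (median 65.8) and 21.5 to 54.9 CPM in Ctrl_F kidneys (median 24.5), a difference of 1.07 (SE 0.25, edgeR adjusted p = 0.00909). Socs2 did not overlap between the sexes, whereas Bcl6 and Fkbp5 did. The growth hormone receptor gene Ghr was close to equal, with 680.1 to 806 CPM in Ctrl_M (median 711) and 622 to 837 CPM in Ctrl_F kidneys (median 699) and a difference of 0.02 (SE 0.09, edgeR adjusted p = 0.921). Of the remaining called genes, chosen after their values were seen, the estrogen receptor gene Esr1 had a difference of 1.01, the insulin-like growth factor receptor gene Igf1r 0.42 and the xenobiotic receptor gene Nr1i2 -0.74.

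Enzymes that make, reduce or oxidize steroids were called in both directions, with more calls in males. Of 31 listed genes 21 were tested, 11 were higher in males and 5 in females, with a median of 0.41. Cyp7b1, which hydroxylates oxysterols and some androgen metabolites, had 100.49 to 192 CPM in Ctrl_M (median 131) and 1.83 to 3.43 CPM in Ctrl_F kidneys (median 2.42), a difference of 5.84 (SE 0.19, edgeR adjusted p = 1.3e-11). The hydroxysteroid dehydrogenases Hsd17b2, which oxidizes testosterone and estradiol to weaker hormones, and Hsd17b11 were higher in males. Hsd17b2 had 13.2 to 28.6 CPM in Ctrl_M (median 18.7) and 2.32 to 4.99 CPM in Ctrl_F kidneys (median 4.28), a difference of 2.41 (SE 0.23, edgeR adjusted p = 1.5e-06), and Hsd17b11 had 190.3 to 454 CPM in Ctrl_M (median 245) and 89.8 to 104 CPM in Ctrl_F kidneys (median 102), a difference of 1.52 (SE 0.19, edgeR adjusted p = 2.3e-05). Within the Akr1c cluster of steroid reductases the directions differed. Akr1c21, a 17-alpha-hydroxysteroid dehydrogenase, had 845 to 1222 CPM in Ctrl_M (median 959) and 387 to 759.5 CPM in Ctrl_F kidneys (median 529), a difference of 0.87 (SE 0.14, edgeR adjusted p = 4.1e-04), while Akr1c18 was on the female side as given above. Hsd11b2, which protects the mineralocorticoid receptor of the collecting duct from glucocorticoids, was higher in females, with 177 to 252 CPM in Ctrl_F (median 201) and 105 to 147 CPM in Ctrl_M kidneys (median 135) and a difference of -0.63 (SE 0.10, edgeR adjusted p = 4.0e-04). Using 2 males, 10 genes of the list were higher in males and 4 in females.

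Among the carriers of organic ions, close paralogs differed in opposite directions. Of 25 genes of the Slc22 family with Slc47a1, 23 were tested, 7 were higher in males and 6 in females, with a median of -0.05. The rodent organic anion carrier genes Slc22a30, Slc22a28, Slc22a29 and Slc22a19 lie in 1 cluster on chromosome 19. Slc22a30 had 119 to 170.0 CPM in Ctrl_M (median 132) and 3.9 to 10.5 CPM in Ctrl_F kidneys (median 5.28), a difference of 4.50 (SE 0.22, edgeR adjusted p = 7.1e-10), and Slc22a28 had 73.3 to 121 CPM in Ctrl_M (median 109) and 4.39 to 12.8 CPM in Ctrl_F kidneys (median 8.46), a difference of 3.63 (SE 0.22, edgeR adjusted p = 1.3e-08). Slc22a26 and Slc22a27 were named after their values were seen. Slc22a26 was not called, at 0.51 (SE 0.33, edgeR adjusted p = 0.356). Slc22a27, with means of 1.57 CPM in Ctrl_F and 0.327 CPM in Ctrl_M, was higher in females, at -2.21 (SE 0.53, edgeR adjusted p = 0.00975). Slc22a29 and Slc22a19 were higher in females as well. Slc22a29 had 22.1 to 44.4 CPM in Ctrl_F (median 31.2) and 0.0982 to 4.36 CPM in Ctrl_M kidneys (median 3.48), a difference of -3.37 (SE 0.39, edgeR adjusted p = 1.3e-05), and Ctrl_M3 was the lowest male at 0.0982 CPM against 3.29 to 4.36 CPM in the other males. Slc22a19 had 107 to 200.5 CPM in Ctrl_F (median 136) and 42.9 to 96 CPM in Ctrl_M kidneys (median 57.8), a difference of -1.19 (SE 0.19, edgeR adjusted p = 3.1e-04), which was not called with Ctrl_M5 and Ctrl_M6 alone (-0.84, edgeR adjusted p = 0.0845). The main basolateral carriers of drugs and urate, Slc22a6 (OAT1) and Slc22a8 (OAT3), went opposite ways. Slc22a6 had 581 to 994 CPM in Ctrl_M (median 726) and 318 to 456 CPM in Ctrl_F kidneys (median 377), a difference of 1.02 (SE 0.13, edgeR adjusted p = 2.5e-05). Slc22a8 had 863 to 1436 CPM in Ctrl_F (median 1261) and 523 to 758 CPM in Ctrl_M kidneys (median 613), a difference of -0.95 (SE 0.13, edgeR adjusted p = 9.4e-05). Neither overlapped between the sexes. Slc22a22, a prostaglandin carrier, was higher in males by 1.40 (SE 0.13, edgeR adjusted p = 9.9e-07). Restricted to 2 males, 6 genes of the family were higher in males and 3 in females.

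Of the 13 Slco genes 8 were tested, 3 were higher in males and 1 in females, with a median of 0.06 (3 higher in males and 1 in females in the comparison with 2 males). Beside Slco1a1, Slco4c1, a basolateral carrier of digoxin and uremic toxins, had 41.5 to 52.7 CPM in Ctrl_M (median 46.3) and 4.41 to 13.3 CPM in Ctrl_F kidneys (median 8.23), a difference of 2.51 (SE 0.19, edgeR adjusted p = 1.2e-07). Slco3a1 had 130.1 to 189.9 CPM in Ctrl_M (median 168) and 38.1 to 58.4 CPM in Ctrl_F kidneys (median 46.7), a difference of 1.79 (SE 0.12, edgeR adjusted p = 2.5e-08). The prostaglandin carrier gene Slco2a1 was higher in females, with 49.5 to 71.4 CPM in Ctrl_F (median 61.1) and 33.1 to 38.8 CPM in Ctrl_M kidneys (median 35.2) and a difference of -0.78 (SE 0.09, edgeR adjusted p = 2.1e-05). Slco4c1, Slco3a1 and Slco2a1 were free of overlap. Slco1a6, which lies beside Slco1a1, overlapped and had a difference of -0.22 (SE 0.09, edgeR adjusted p = 0.149).

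Pumps of the ABC families export conjugates and drugs. Of 16 genes 14 were tested, 5 were higher in females, 1 in males and 8 were not called, with a median of -0.24 (0 higher in males and 4 in females in the comparison with 2 males). Abcc3 (MRP3), which exports glucuronides across the basolateral membrane, had 98 to 175 CPM in Ctrl_F (median 144) and 2.17 to 5.17 CPM in Ctrl_M kidneys (median 3.87), a difference of -5.15 (SE 0.21, edgeR adjusted p = 8.8e-11). Abcc4 (MRP4), in the brush border, had 151 to 300.1 CPM in Ctrl_F (median 218) and 43.5 to 102 CPM in Ctrl_M kidneys (median 69.2), a difference of -1.62 (SE 0.20, edgeR adjusted p = 2.3e-05). The P-glycoprotein genes Abcb1a and Abcb1b are close paralogs. Abcb1a had 15 to 26.1 CPM in Ctrl_F (median 18.2) and 4.03 to 10.6 CPM in Ctrl_M kidneys (median 6.41), a difference of -1.54 (SE 0.23, edgeR adjusted p = 1.7e-04), and Abcb1b had 29.9 to 56.8 CPM in Ctrl_F (median 36.9) and 6.62 to 15.6 CPM in Ctrl_M kidneys (median 9.39), a difference of -1.87 (SE 0.21, edgeR adjusted p = 8.0e-06). No male reached the lowest female for Abcc4, Abcb1a or Abcb1b. Abcc2 (MRP2), the brush border counterpart of Abcc3, overlapped, with a difference of 0.33 (SE 0.14, edgeR adjusted p = 0.157). Leaving out Ctrl_M5 brought Abcc2 past the threshold at 0.42 (edgeR adjusted p = 0.0397).

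**Figure D4:**
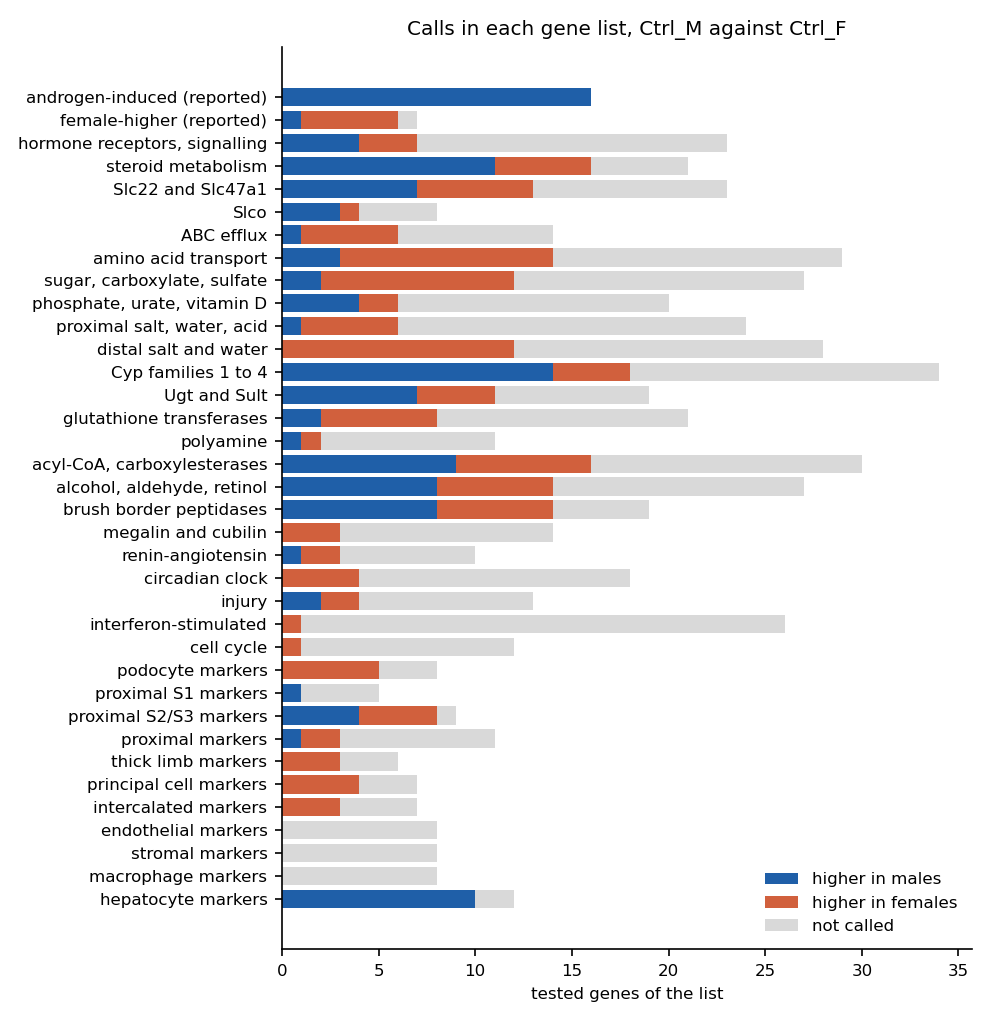
Number of tested genes in each list that were higher in males (blue), higher in females (orange) or not called (gray) between Ctrl_M and Ctrl_F kidneys, by an edgeR adjusted p under 0.05. Over all 13561 genes 7.03% were called higher in males and 6.78% higher in females. The androgen-induced list was called in males for 16 of 16 genes, whereas distal salt and water genes were called in females only (12 of 28).

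Of 33 amino acid carrier genes 29 were tested, 11 were higher in females and 3 in males, and the median was -0.29. Slc7a12, a carrier of small neutral amino acids, had 156 to 378 CPM in Ctrl_F (median 226) and 2.22 to 20.6 CPM in Ctrl_M kidneys (median 9.81), a difference of -4.46 (SE 0.41, edgeR adjusted p = 9.6e-07), and Ctrl_F5 was highest. The proton-coupled peptide carrier gene Slc15a2, which recovers small peptides in the late proximal tubule, had 74 to 138 CPM in Ctrl_F (median 120.2) and 40.3 to 70.2 CPM in Ctrl_M kidneys (median 55), a difference of -1.01 (SE 0.15, edgeR adjusted p = 2.3e-04). Slc6a18, a brush border carrier of glycine and other neutral amino acids, had 493 to 786 CPM in Ctrl_F (median 552) and 284 to 430.4 CPM in Ctrl_M kidneys (median 339.5), a difference of -0.75 (SE 0.12, edgeR adjusted p = 5.1e-04). Slc15a2 and Slc6a18 did not overlap. Slc3a2, the heavy chain shared by several carriers and also counted among 11 tested polyamine genes, was higher in females, at -0.60 (SE 0.10, edgeR adjusted p = 6.1e-04), and with Odc1 it was the only polyamine gene called, and it was not called in the comparison with 2 males. Slc3a1, whose product pairs with the cystine carrier, was not called, at -0.20 (SE 0.08, edgeR adjusted p = 0.113). For 2 males against the females, 1 amino acid carrier gene was higher in males and 5 in females.

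Carriers of sugars, carboxylates, sulfate and vitamins had 27 tested genes, 10 of them higher in females and 2 in males, with a median of -0.33. Slc5a8, which recovers lactate and other monocarboxylates, had 296 to 366 CPM in Ctrl_M (median 333) and 88.7 to 172 CPM in Ctrl_F kidneys (median 147), a difference of 1.23 (SE 0.13, edgeR adjusted p = 6.9e-06). Slc5a6, a carrier of biotin and pantothenate, had 39.7 to 66.9 CPM in Ctrl_F (median 51.4) and 18.9 to 26.7 CPM in Ctrl_M kidneys (median 21.6), a difference of -1.24 (SE 0.12, edgeR adjusted p = 2.7e-06). Slc13a2, the citrate carrier of the brush border, had 55.6 to 82.3 CPM in Ctrl_F (median 68.7) and 33.9 to 49.2 CPM in Ctrl_M kidneys (median 38.4), a difference of -0.77 (SE 0.12, edgeR adjusted p = 2.9e-04). These 3 showed no overlap. Slc5a10, a sodium-dependent mannose and fructose carrier, had a difference of -0.77 (SE 0.14, edgeR adjusted p = 0.00119), and it was not called with Ctrl_M5 and Ctrl_M6 alone (-0.55, edgeR adjusted p = 0.149). The dicarboxylate carrier gene Slc13a3 overlapped and was not called, at -0.15 (SE 0.13, edgeR adjusted p = 0.511). In that comparison 2 genes of the list were higher in males and 3 in females.

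For phosphate, urate and vitamin D, 20 of 21 genes were tested, 4 were higher in males and 2 in females, with a median of 0.14 (3 higher in males and 1 in females in the comparison with 2 males). Slc22a12 (URAT1), which reabsorbs urate at the brush border, had 673 to 935 CPM in Ctrl_M (median 795) and 291 to 407 CPM in Ctrl_F kidneys (median 353), a difference of 1.18 (SE 0.11, edgeR adjusted p = 1.8e-06). Slc17a3, which carries urate and other organic anions, had 594 to 795 CPM in Ctrl_M (median 705) and 323 to 433 CPM in Ctrl_F kidneys (median 402), a difference of 0.83 (SE 0.10, edgeR adjusted p = 2.9e-05). Its neighbor Slc17a1 had 529 to 673 CPM in Ctrl_M (median 565) and 325 to 373 CPM in Ctrl_F kidneys (median 333), a difference of 0.77 (SE 0.08, edgeR adjusted p = 7.6e-06). None of the 3 overlapped. Slc17a2, of the same chromosome 13 cluster, was on the other side, with 17.7 to 34 CPM in Ctrl_F (median 23.5) and 0.0516 to 1.96 CPM in Ctrl_M kidneys (median 0.927) and a difference of -4.50 (SE 0.36, edgeR adjusted p = 1.9e-07). Slc34a1, the main phosphate carrier of the proximal tubule, overlapped, and its difference of 0.30 (SE 0.10, edgeR adjusted p = 0.0466) was near the threshold. Slc34a1 was not called when Ctrl_F1, Ctrl_F2, Ctrl_F3, Ctrl_F6, Ctrl_M1, Ctrl_M2, Ctrl_M3 or Ctrl_M5 was left out (log2 differences of 0.26 to 0.32).

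Genes of salt, water and acid transport were called mostly in females. In the proximal tubule list 24 of 25 genes were tested, 5 were higher in females and 1 in males, with a median of -0.10 (1 higher in males and 1 in females in the comparison with 2 males). Car4, the brush border carbonic anhydrase, had 105 to 159 CPM in Ctrl_M (median 151) and 61.4 to 81.4 CPM in Ctrl_F kidneys (median 62.8), a difference of 1.09 (SE 0.11, edgeR adjusted p = 2.7e-06). Pck1, for the enzyme of renal glucose production that rises in acidosis, had 1925 to 3111 CPM in Ctrl_F (median 2391) and 818 to 1634 CPM in Ctrl_M kidneys (median 1439.9), a difference of -0.84 (SE 0.16, edgeR adjusted p = 0.00157). The sodium-proton exchanger gene Slc9a8 and the glutamine carrier gene Slc38a3 were higher in females, at -0.77 (SE 0.14, edgeR adjusted p = 9.0e-04) and -0.68 (SE 0.14, edgeR adjusted p = 0.00356). In the distal list 28 of 30 genes were tested, 12 were higher in females and 0 in males, and the median was -0.45, with all 28 estimates below 0. The summed level of this list was 7640.1 to 10166 CPM in Ctrl_M and 11185 to 11905 CPM in Ctrl_F kidneys, without overlap. Kcnj10, a potassium channel of the distal convoluted tubule, had 116 to 153 CPM in Ctrl_F (median 129) and 67.2 to 106 CPM in Ctrl_M kidneys (median 92.4), a difference of -0.55 (SE 0.11, edgeR adjusted p = 0.00194). Aqp4, a basolateral water channel of the collecting duct, and Trpv5, the apical calcium channel, had differences of -0.71 (SE 0.21, edgeR adjusted p = 0.0345) and -0.56 (SE 0.15, edgeR adjusted p = 0.0228), and both overlapped. Umod, the gene of uromodulin, had 2348 to 3789.7 CPM in Ctrl_F (median 2728) and 1747 to 2432 CPM in Ctrl_M kidneys (median 2064), a difference of -0.47 (SE 0.13, edgeR adjusted p = 0.0233). Aqp4 was not called when Ctrl_F1, Ctrl_F2, Ctrl_F5, Ctrl_F6, Ctrl_M1, Ctrl_M2, Ctrl_M4, Ctrl_M5 or Ctrl_M6 was left out (log2 differences of -0.72 to -0.53). Trpv5 was not called when Ctrl_F4, Ctrl_F5, Ctrl_M3, Ctrl_M4 or Ctrl_M5 was left out (log2 differences of -0.51 to -0.49). Umod was not called when Ctrl_F4, Ctrl_F5, Ctrl_M1, Ctrl_M3, Ctrl_M4 or Ctrl_M5 was left out (log2 differences of -0.47 to -0.35). Among 2 males and 6 females, 4 of the distal genes were called, all higher in females.

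Markers of nephron segments beyond the proximal tubule were called in females only. All 6 markers of the thick limb had lower estimates in males, and 3 were called (Umod, Egf and Kcnj1), and their sum was 4774 to 6110 CPM in Ctrl_M and 6990 to 7964 CPM in Ctrl_F kidneys. Of 7 principal cell markers 4 were called in females (Aqp4, Scnn1b, Scnn1g and Hsd11b2), with sums of 359 to 468 and 526 to 639 CPM. Of 7 intercalated cell markers 3 were (Slc26a4, Aqp6 and Kit), with sums of 253 to 318 and 323 to 384 CPM. In the distal convoluted tubule 1 of 4 markers was called, Slc12a3, the thiazide-sensitive carrier, at -0.50 (SE 0.14, edgeR adjusted p = 0.0271), and in the thin limb 1 of 5, Slc14a2, at -0.66 (SE 0.19, edgeR adjusted p = 0.0304). Slc12a3 was not called when Ctrl_F1, Ctrl_F3 or Ctrl_M2 was left out (log2 differences of -0.50 to -0.46). Slc14a2 was not called when Ctrl_F2, Ctrl_F4, Ctrl_F6, Ctrl_M2, Ctrl_M3 or Ctrl_M5 was left out (log2 differences of -0.64 to -0.55). Slc26a4 was not called when Ctrl_F3, Ctrl_F5 or Ctrl_M4 was left out (log2 differences of -0.36 to -0.31). Kit was not called when Ctrl_F1, Ctrl_F2, Ctrl_F3, Ctrl_M1 or Ctrl_M5 was left out (log2 differences of -0.47 to -0.41). Of 8 podocyte markers 5 were higher in females (Nphs1, Podxl, Synpo, Wt1 and Ptpro), with sums of 577 to 692 CPM in Ctrl_M and 711 to 870.1 CPM in Ctrl_F kidneys. The sums of the thick limb, principal cell, intercalated cell and podocyte markers did not overlap between the sexes. In the comparison with 2 males, 1, 3, 0 and 1 of these markers were called, and Slc12a3 and Slc14a2 were not. The share called over all genes also fell, from 13.8% to 5.27%, so fewer calls there are not particular to these markers.

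Proximal tubule markers were called in both directions. Of 11 general markers 2 were higher in females (Lrp2 and Cubn), and 1 was higher in males, Slc27a2, a fatty acid carrier and activator, at 0.47 (SE 0.09, edgeR adjusted p = 0.00197). None of these 3 was called in the comparison with 2 males or with the hepatocyte covariate. The sum of the 11 was 12382 to 14025 CPM in Ctrl_M and 12653 to 13945 CPM in Ctrl_F kidneys. Of 5 markers of the first segment 1 was called, Slc34a1, as given above, and with 2 males or with the covariate it was not called. Markers of the later segments are largely the same carriers as above, and 4 of 9 were higher in males and 4 in females, or 4 and 1 in either of these settings. Among them Atp11a, a phospholipid flippase, had 1056 to 1979.7 CPM in Ctrl_M (median 1440.1) and 370.4 to 564 CPM in Ctrl_F kidneys (median 463), a difference of 1.62 (SE 0.14, edgeR adjusted p = 7.4e-07), and Slc5a1, the glucose carrier of the last segment, had a difference of -0.60 (SE 0.15, edgeR adjusted p = 0.0114). Endothelial, stromal and macrophage markers (8 each), with all of the tested lymphocyte (5), adipocyte (3), urothelial (5) and adrenal (1) markers, gave 0 calls with edgeR. Of these 38 markers 1 had an unadjusted p under 0.05, limma-voom called 1 and DESeq2 0. No marker of the gonadal tract was expressed highly enough to be tested.

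Of 71 genes of cytochrome P450 families 1 to 4, which oxidize drugs, steroids and fatty acids, 34 were tested, 14 were higher in males and 4 in females, with a median of 0.18. Cyp2e1, which metabolizes ethanol and acetaminophen, had 1392 to 3001 CPM in Ctrl_M (median 1598) and 60 to 197 CPM in Ctrl_F kidneys (median 90.6), a difference of 4.14 (SE 0.29, edgeR adjusted p = 5.1e-08). Cyp4b1, which activates several nephrotoxins, had 1176 to 2480.4 CPM in Ctrl_M (median 1709) and 61.3 to 182 CPM in Ctrl_F kidneys (median 78.1), a difference of 4.06 (SE 0.32, edgeR adjusted p = 1.7e-07). Cyp2d9, a testosterone 16-alpha-hydroxylase, had 82.8 to 240.0 CPM in Ctrl_M (median 124) and 4.94 to 13.7 CPM in Ctrl_F kidneys (median 10), a difference of 3.95 (SE 0.33, edgeR adjusted p = 3.9e-07). Every male exceeded every female for these 3. The arachidonic acid hydroxylase genes Cyp4a12a and Cyp4a12b are near-identical neighbors, so that reads may be lost or misplaced between them. Cyp4a12a had 36.3 to 144 CPM in Ctrl_M (median 42) and 0.26 to 2.81 CPM in Ctrl_F kidneys (median 1.28), a difference of 5.64 (SE 0.48, edgeR adjusted p = 4.9e-07), and Cyp4a12b had 4.76 to 16.7 CPM in Ctrl_M (median 7.35) and 0.434 to 2.23 CPM in Ctrl_F kidneys (median 1.32), a difference of 2.71 (SE 0.36, edgeR adjusted p = 6.2e-05). Cyp2j5, an epoxygenase, had 2034 to 3058 CPM in Ctrl_M (median 2718) and 1106 to 1607 CPM in Ctrl_F kidneys (median 1414), a difference of 0.92 (SE 0.11, edgeR adjusted p = 2.4e-05). In the comparison with 2 males 8 genes of these families were higher in males and 3 in females.

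Conjugating enzymes were called in both directions. Of 32 Ugt and Sult genes 19 were tested, 7 were higher in males and 4 in females, with a median of 0.31 (5 higher in males and 5 in females in the comparison with 2 males). Of the Ugt2b members, which conjugate steroids, 3 were higher in males. Ugt2b38 had 616 to 934 CPM in Ctrl_M (median 791) and 39.3 to 122 CPM in Ctrl_F kidneys (median 57.7), a difference of 3.56 (SE 0.24, edgeR adjusted p = 4.2e-08), and Ugt2b37 had 69.3 to 246 CPM in Ctrl_M (median 118) and 1.33 to 3.43 CPM in Ctrl_F kidneys (median 1.91), a difference of 5.94 (SE 0.32, edgeR adjusted p = 2.4e-09), with Ctrl_M3 highest at 246 CPM against 69.3 to 133 CPM in the other males. Ugt2b34, named after its values were seen, had a difference of -1.60. Ugt3a2 was higher in males by 0.65 (SE 0.09, edgeR adjusted p = 5.8e-05). Of 27 glutathione transferase genes 21 were tested, 6 were higher in females and 2 in males, with a median of -0.18 (0 higher in males and 4 in females in the comparison with 2 males). Gsta4, which detoxifies the lipid peroxidation product 4-hydroxynonenal, had 98.7 to 184 CPM in Ctrl_F (median 132) and 19.8 to 29.7 CPM in Ctrl_M kidneys (median 25.1), a difference of -2.44 (SE 0.15, edgeR adjusted p = 9.0e-09). Gsta2 had 273 to 387 CPM in Ctrl_F (median 351) and 120.2 to 180.0 CPM in Ctrl_M kidneys (median 133), a difference of -1.26 (SE 0.12, edgeR adjusted p = 1.1e-06), and Gsto1 and Mgst1 were also higher in females, at -0.98 (SE 0.10, edgeR adjusted p = 3.9e-06) and -0.72 (SE 0.14, edgeR adjusted p = 0.00154). Gstz1, of tyrosine breakdown, was higher in males by 0.39 (SE 0.09, edgeR adjusted p = 0.00545). These 5 were free of overlap.

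Enzymes that activate or hydrolyze acyl-CoA, together with carboxylesterases, had 30 tested genes of 33, 9 higher in males and 7 in females, with a median of -0.03 (7 higher in males and 5 in females in the comparison with 2 males). Beside Acsm3, its neighbor Acsm2 had 5208 to 8144 CPM in Ctrl_M (median 6678) and 1383 to 2076 CPM in Ctrl_F kidneys (median 1688), a difference of 1.97 (SE 0.12, edgeR adjusted p = 1.1e-08). The carboxylesterase gene Ces1f had 641 to 1033 CPM in Ctrl_M (median 752) and 79.6 to 161 CPM in Ctrl_F kidneys (median 113), a difference of 2.84 (SE 0.17, edgeR adjusted p = 9.5e-09). Acot3, a peroxisomal thioesterase, was higher in females, with 54.2 to 71.7 CPM in Ctrl_F (median 66.7) and 9.96 to 26.9 CPM in Ctrl_M kidneys (median 15) and a difference of -2.01 (SE 0.18, edgeR adjusted p = 9.5e-07). None of these overlapped. For alcohols, aldehydes and retinol 27 of 31 genes were tested, 8 were higher in males and 6 in females, with a median of 0.20 (3 higher in males and 4 in females in the comparison with 2 males). The retinol dehydrogenase gene Rdh16f2 had 224 to 302 CPM in Ctrl_F (median 243) and 33.7 to 62.2 CPM in Ctrl_M kidneys (median 48.9), a difference of -2.38 (SE 0.16, edgeR adjusted p = 2.8e-08). Of the retinaldehyde dehydrogenases, which make retinoic acid, Aldh1a1 and Aldh1a2 were higher in females, at -1.21 (SE 0.18, edgeR adjusted p = 2.1e-04) and -1.56 (SE 0.24, edgeR adjusted p = 2.6e-04), and Aldh1a3, named after its values were seen, was not called, at 0.76. Akr1a1, an aldehyde reductase, was higher in males by 0.49 (SE 0.11, edgeR adjusted p = 0.00464).

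Peptidases and other hydrolases of the brush border and cytosol had 19 tested genes of 22, 8 higher in males and 6 in females, with a median of 0.11 (8 higher in males and 2 in females in the comparison with 2 males). Cndp2, a dipeptidase, had 683 to 1199.6 CPM in Ctrl_M (median 748) and 151 to 227 CPM in Ctrl_F kidneys (median 186), a difference of 2.17 (SE 0.14, edgeR adjusted p = 2.5e-08). Acy3, which splits mercapturic acids, had 1518 to 2824 CPM in Ctrl_M (median 2114) and 494 to 748 CPM in Ctrl_F kidneys (median 665), a difference of 1.74 (SE 0.15, edgeR adjusted p = 5.7e-07). Treh, for trehalase, had 77.8 to 137 CPM in Ctrl_M (median 98.3) and 31.2 to 43.7 CPM in Ctrl_F kidneys (median 39.5), a difference of 1.41 (SE 0.14, edgeR adjusted p = 3.5e-06). Lap3, a leucine aminopeptidase, and Mep1a, a meprin subunit, were higher in males by 1.25 (SE 0.11, edgeR adjusted p = 8.4e-07) and 0.57 (SE 0.08, edgeR adjusted p = 1.3e-04). All of these were without overlap. Mme, the peptidase neprilysin, was higher in females, with 199.8 to 438 CPM in Ctrl_F (median 377) and 150.1 to 228 CPM in Ctrl_M kidneys (median 168) and a difference of -1.0 (SE 0.16, edgeR adjusted p = 3.3e-04). Of 13 genes of the renin-angiotensin system 10 were tested, 1 was higher in males and 2 in females, and with 2 males or with the hepatocyte covariate 0 and 1 were. The renin gene Ren1 had 68.7 to 104 CPM in Ctrl_F (median 85.5) and 36.9 to 91 CPM in Ctrl_M kidneys (median 43.8), a difference of -0.78 (SE 0.19, edgeR adjusted p = 0.0102), and Ctrl_M6 was the only male over 46.2 CPM and overlapped with the females. Ace, the converting enzyme, had 226 to 450.5 CPM in Ctrl_M (median 266) and 253 to 308 CPM in Ctrl_F kidneys (median 296), with no difference between the sexes that the test could call, at -0.01 (SE 0.14, edgeR adjusted p = 0.977).

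Receptor-mediated uptake of filtered protein had 14 tested genes of 15, of which 3 were called, all higher in females, with a median of -0.09 (0 higher in males and 1 in females in the comparison with 2 males). Lrp2, the gene of megalin, had 3083 to 3752 CPM in Ctrl_F (median 3569) and 2448 to 2884 CPM in Ctrl_M kidneys (median 2498), a difference of -0.44 (SE 0.08, edgeR adjusted p = 0.00133). Cubn, the gene of cubilin, had a difference of -0.43 (SE 0.12, edgeR adjusted p = 0.0205) and overlapped. Gc, the vitamin D binding protein that megalin takes up, had 81.5 to 125 CPM in Ctrl_F (median 92.7) and 12 to 58.6 CPM in Ctrl_M kidneys (median 35.6), a difference of -1.45 (SE 0.25, edgeR adjusted p = 6.7e-04), with no overlap. Of 18 clock genes 4 were called, all higher in females, against 2 in the comparison with 2 males and 1 with the hepatocyte covariate. Bhlhe40 had 167 to 228 CPM in Ctrl_F (median 177) and 88.4 to 132 CPM in Ctrl_M kidneys (median 111) and a difference of -0.75 (SE 0.11, edgeR adjusted p = 1.3e-04). Bhlhe41 and Nr1d1 had differences of -0.70 (SE 0.20, edgeR adjusted p = 0.0259) and -0.48 (SE 0.14, edgeR adjusted p = 0.0282), and Tef was not called, at -0.14 (SE 0.15, edgeR adjusted p = 0.616). Cubn was not called when Ctrl_M1 was left out (a log2 difference of -0.40). Bhlhe41 was not called when Ctrl_F3, Ctrl_M3 or Ctrl_M5 was left out (log2 differences of -0.66 to -0.50). Nr1d1 was not called when Ctrl_F2, Ctrl_F3, Ctrl_F6, Ctrl_M1, Ctrl_M3 or Ctrl_M5 was left out (log2 differences of -0.47 to -0.40). Each kidney was taken at a single time of day, so these are levels at that time.

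Of 13 tested injury genes 2 were higher in males and 2 in females, and with 2 males or with the hepatocyte covariate 0 and 1 were. Spp1, for osteopontin, had 1313 to 1507 CPM in Ctrl_F (median 1450.5) and 499.6 to 1101 CPM in Ctrl_M kidneys (median 585), a difference of -1.10 (SE 0.16, edgeR adjusted p = 1.4e-04), and Ctrl_M6 was the highest male. Clu, for clusterin, was higher in females, at -0.55 (SE 0.13, edgeR adjusted p = 0.00776). The 2 male calls, Fgb and Fgg, are fibrinogen chains that are also on the hepatocyte list. Of 26 tested interferon-stimulated genes 1 was called, and the median was -0.52. Their level moved with 1 kidney, since the sum of the list was 302 to 406 CPM in Ctrl_M and 340 to 418 CPM in Ctrl_F2 to Ctrl_F6, where the sexes overlapped, and 1432 CPM in Ctrl_F1. Gbp3 had 41.8 to 199.5 CPM in Ctrl_F (median 56.1) and 12.6 to 19.4 CPM in Ctrl_M kidneys (median 16.9), a difference of -2.22 (SE 0.33, edgeR adjusted p = 1.6e-04), and the female maximum was Ctrl_F1. Without Ctrl_F1 its difference was -1.67 (edgeR adjusted p = 1.7e-07). Rsad2 was not called, at -0.14 (SE 0.16, edgeR adjusted p = 0.64). Of 12 tested cell cycle genes 1 was called, Tyms, at -0.57 (SE 0.13, edgeR adjusted p = 0.00753), but not in the comparison with 2 males. Mcm6 was not called, at -0.02 (SE 0.12, edgeR adjusted p = 0.96).

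Hepatocyte transcripts were themselves higher in males. Of 12 tested markers 10 were called in males and 0 in females, with a median of 2.31. Alb had 15.1 to 658 CPM in Ctrl_M (median 338) and 21.5 to 55.9 CPM in Ctrl_F kidneys (median 26.9), a difference of 3.35 (SE 0.70, edgeR adjusted p = 0.00357), and Apoa1 had 1.33 to 53.8 CPM in Ctrl_M (median 34.8) and 0.636 to 3.48 CPM in Ctrl_F kidneys (median 1.49), a difference of 3.95 (SE 0.67, edgeR adjusted p = 6.5e-04). The groups overlapped for all 10 called markers, and the lowest male was Ctrl_M5 or Ctrl_M6 in each. Limma-voom called 5 of the 12 and DESeq2 11. Estimates for Apoa2, Ttr, Fga, Fgb, Fgg, Ahsg, Serpina1c and Serpina3k were 2.06, 1.46, 0.77, 2.55, 1.43, 4.22, 3.22 and 4.66. Fga was not called when Ctrl_F3, Ctrl_F4, Ctrl_F5, Ctrl_F6, Ctrl_M1, Ctrl_M2 or Ctrl_M3 was left out (log2 differences of 0.63 to 0.76). With Ctrl_M5 and Ctrl_M6 as the only males none of the 12 was called by edgeR (3 had an unadjusted p under 0.05), and Alb had a difference of -0.64. The males left out were chosen as those with most of these markers, so this loss of calls follows from the choice. The part of hepatocyte transcripts in the other differences was not tested beyond the 2 alternatives named above.

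The sex difference was also looked up in the 12 cKO kidneys, which are separate samples of another genotype. The study found residual full-length Pex5 mRNA and some PEX5 protein in kidneys of cKO females, but virtually no PEX5 protein in cKO males. In the cKO comparison and in the test between genotypes, sex therefore cannot be told apart from the degree of deletion. There 1598 of the same 13561 genes differed (11.8%), 769 higher in males (5.67%) and 829 higher in females (6.11%). Called in the same direction in both genotypes were 736 genes, 39.3% of the control calls and 46.1% of the cKO calls, and 12 were called in opposite directions. The control difference kept its sign in cKO kidneys for 86.3% of the male-higher and 91.8% of the female-higher genes, against 64.4% of all tested genes. The median difference of the male-higher genes was 0.22 in cKO kidneys and that of the female-higher genes -0.31.

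A test of the difference between the sex effects in control and cKO kidneys called 375 genes (2.77%), and 1910 had an unadjusted p under 0.05. Of the 375 genes 308 were called in control kidneys, 226 as male-higher and 82 as female-higher. The sex difference was smaller in cKO kidneys for 222 of the 226 and 78 of the 82, but a call in control kidneys favors genes whose control difference is large, so these counts describe the genes and test nothing. The largest of these changes among genes with at least 10 CPM in a group was that of Slco1a1, which had 0.22 to 3.42 CPM in KO_M (median 1.37) and 0 to 2.35 CPM in KO_F kidneys (median 0.158). Its sex difference was 1.49 in cKO kidneys (edgeR adjusted p = 0.213), and the 2 sex differences differed by 8.21 (SE 1.19, interaction in edgeR, adjusted p = 1.2e-04). Acsm3 had 29.2 to 80.8 CPM in KO_M (median 48.6) and 1.78 to 6.91 CPM in KO_F kidneys (median 5.98). The sex difference of Acsm3 was 3.37 in cKO kidneys (edgeR adjusted p = 9.4e-07), and the 2 sex differences differed by 4.47 (SE 0.48, interaction in edgeR, adjusted p = 1.5e-06). The KO_M levels of both genes lay below every Ctrl_M kidney, and the females of both genotypes were low. Pzp had 7.4 to 34.6 CPM in KO_M (median 13.6) and 0.291 to 3.4 CPM in KO_F kidneys (median 1.28). The difference between the sexes was 3.69 in cKO kidneys (edgeR adjusted p = 6.3e-05), and the 2 sex differences differed by 3.56 (SE 0.64, interaction in edgeR, adjusted p = 0.00111). Ftcd, an enzyme of histidine breakdown that is also known from liver, had 12.3 to 103 CPM in Ctrl_M (median 81.4) and 2.94 to 33.6 CPM in Ctrl_F kidneys (median 27.2) in controls, where Ctrl_M6 was lowest and the other males had 69.8 to 103 CPM. Its sex difference in controls was 1.82, and it was -1.28 in cKO kidneys (edgeR adjusted p = 0.107), and the 2 sex differences differed by 3.12 (SE 0.81, interaction in edgeR, adjusted p = 0.031). Ftcd was not called when Ctrl_F6, Ctrl_M1, Ctrl_M2, Ctrl_M3, Ctrl_M4 or Ctrl_M5 was left out (log2 differences of 1.70 to 1.90).

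Female-higher genes changed as well. Slc7a12 had 65.8 to 132 CPM in KO_M (median 106) and 100.02 to 259.6 CPM in KO_F kidneys (median 179). Its sex difference was -0.87 in cKO kidneys (edgeR adjusted p = 0.0107), and the 2 sex differences differed by -3.58 (SE 0.46, interaction in edgeR, adjusted p = 2.0e-05). Prlr had 101 to 154 CPM in KO_M (median 142) and 211 to 342 CPM in KO_F kidneys (median 265). For Prlr the sex difference was -1.02 in cKO kidneys (edgeR adjusted p = 3.9e-05), and the 2 sex differences differed by -2.91 (SE 0.50, interaction in edgeR, adjusted p = 7.2e-04). Males with cKO kidneys had more of both transcripts than any control male. For other genes no change of the sex difference was called. Cyp2j13 had 131 to 188 CPM in KO_M (median 161) and 0.178 to 3.34 CPM in KO_F kidneys (median 0.883). Its sex difference was 7.09 in cKO kidneys (edgeR adjusted p = 3.8e-10), and the 2 sex differences differed by 1.14 (SE 0.55, interaction in edgeR, adjusted p = 0.34). Hdc had 0.38 to 0.777 CPM in KO_M (median 0.51) and 10.8 to 87 CPM in KO_F kidneys (median 24.3). For Hdc the difference was -5.89 in cKO kidneys (edgeR adjusted p = 4.1e-07), and the 2 sex differences differed by 0.09 (SE 0.72, interaction in edgeR, adjusted p = 0.968). Of the carriers, Slc22a12, Slc17a3 and Car4 had sex differences of 0.19, -0.05 and 0.01 in cKO kidneys, none of them called, whereas Slc22a8 had -0.75 (edgeR adjusted p = 2.6e-06), with no call for a change from the control difference (adjusted p = 0.641).

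**Figure D5:**
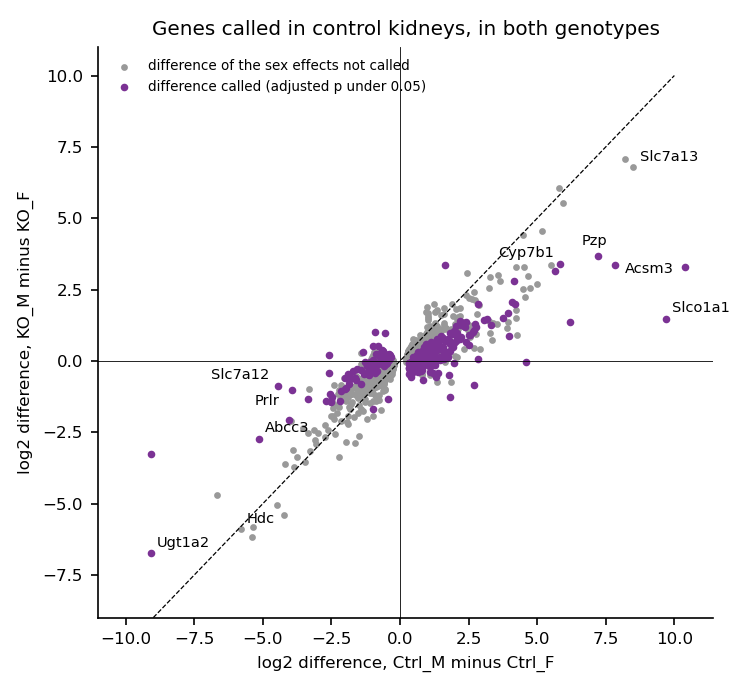
Log2 sex difference in cKO kidneys against that in control kidneys for the 1872 genes called in control kidneys. Purple points are the 308 genes whose sex differences differed between the genotypes (interaction called at an adjusted p under 0.05), and the dashed line marks equal differences. Slco1a1 lies at 9.68 in control and 1.49 in cKO kidneys, and Hdc close to the line.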

How the data were processed

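Poly(A) RNA of 24 whole kidneys was sequenced with a stranded TruSeq kit. Per the labels and the study's methods, the authors trimmed reads with cutadapt 1.8, aligned them to GRCm38 with STAR 2.5.3a and deposited raw counts of reads per gene from HTSeq 0.9.1, 1 file a kidney. Multi-mapped reads (26.92 to 30.43% of control reads) and reads outside genes (4.58 to 6.66%) were not assigned by the authors and stayed out of library sizes. The study describes the values of a group as those of individual mice. Pairs of kidneys of 1 group differed beyond sampling noise (chi-square per degree of freedom 14.5 to 80.2 over 30 pairs).

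Counts were scaled by TMM and tested with edgeR 4.0.16 (R 4.3.3) by the quasi-likelihood test with Benjamini-Hochberg adjustment over all 13561 genes. Each SE was derived from that test, as the absolute log2 difference divided by the square root of the F value. Autosomal genes were kept where 6 or more control kidneys reached 1 CPM. The cKO kidneys and the interaction were fitted on the same genes. TMM factors for control CPM came from the 12 control kidneys and those for cKO CPM from all 24. Control and cKO levels are therefore not on exactly the same scale. Single genes were also tested by a two-sided exact permutation test on log2 CPM with a prior count of 2. Alternatives used limma 3.58.1, DESeq2 1.42.0, other filters and scaling, a replicate block, a hepatocyte covariate and fewer kidneys. The model was tested on simulated data. Members and gene lists were chosen with earlier results of these data known. Named are the 12 largest non-overlapping differences per sex with a mean of at least 10 CPM, every tested gene of the androgen and female lists, up to 4 called genes and the most abundant gene of each other list, called cell type markers and up to 6 interactions. Values of 2 genes that this rule names are not reported here. Promoters cover the 250 bases before each start, since bases after it were left out.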

Additional observations from a re-analysis of the deposited data

Results flagged for a closer look

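In 292 groups of 6 kidneys, 30 values lay farther from their group than Dixon's 95% limit for 6 samples. For independent, normally distributed groups, chance gives about 1 in 20. These groups are the same 12 kidneys seen in many genes, and many of the genes were named for their values. The 30 therefore cannot be set against that rate. Myh4 and Pvalb were picked after their values were seen. In Ctrl_M6, Cyp4a12b had 16.7 CPM against 4.76 to 8.5 CPM in the other males, Cyp4a14 had 216 CPM against 5.67 to 56.1 CPM, and Gsto1 had 42 CPM against 27.9 to 32.7 CPM. There Ren1 had 91 CPM against 37 to 46.2 CPM, Spp1 had 1101 CPM against 499.6 to 683 CPM, and Slc5a1 had 79.6 CPM against 40.1 to 52.2 CPM. There Aqp6 had 58.8 CPM against 30.2 to 39.4 CPM, and Ftcd had 12.3 CPM against 69.8 to 103 CPM. In Ctrl_M3, Ugt2b37 had 246 CPM against 69.3 to 132.5 CPM in the other males, Slc22a29 had 0.0982 CPM against 3.29 to 4.36 CPM, and Aldh1a1 had 16.1 CPM against 7.07 to 9.39 CPM. There Ace had 450.5 CPM against 226 to 282 CPM, and Slc27a2 had 4749 CPM against 3616 to 3999 CPM. In Ctrl_F4, Gusb had 36 CPM against 26.6 to 29.8 CPM in the other females, Car4 had 81.4 CPM against 61.4 to 67.7 CPM, and Myh4 had 273 CPM against 0 to 41.5 CPM. There Pvalb had 68.6 CPM against 15.5 to 32.9 CPM. In Ctrl_F2, Slco1a1 had 1.98 CPM against 0 to 0.128 CPM in the other females, Apoh had 0.925 CPM against 0 to 0.214 CPM, and Alb had 55.9 CPM against 21.5 to 30.8 CPM. In Ctrl_F5, Slc7a12 had 378 CPM against 156 to 236 CPM in the other females, Slc22a22 had 54.6 CPM against 32.7 to 38.8 CPM, and Rdh16f2 had 302 CPM against 224 to 253 CPM. In Ctrl_F3, Bhlhe40 had 228 CPM against 167 to 189 CPM in the other females, and Mcm6 had 15.9 CPM against 23.5 to 27.8 CPM. In Ctrl_M5, Egf had 1355 CPM against 1617 to 1724 CPM in the other males, and Myh4 had 11.8 CPM against 0 to 1.87 CPM. In Ctrl_F1, Gbp3 had 199.5 CPM against 41.8 to 62.6 CPM in the other females. In Ctrl_M2, Hsd11b2 had 105 CPM against 132 to 147 CPM in the other males. In Ctrl_M4, Slc22a28 had 73.3 CPM against 106 to 121 CPM in the other males.

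For 47 of the 146 named genes the sex difference itself differed between control and cKO kidneys. Their Benjamini-Hochberg adjusted p was 1.5e-06 to 0.049 by edgeR's quasi-likelihood test of the interaction, which called 2.77% of all tested genes. Many named genes were chosen for a called sex difference in control kidneys, and some for a called interaction. Their share therefore cannot be set against the rate over all genes. The log2 value is the male-minus-female difference of control kidneys less that of cKO kidneys. The change was 8.21 for Slco1a1, 4.47 for Acsm3, 3.56 for Pzp, 2.45 for Cyp7b1, 2.51 for Cyp4a12a, 1.12 for Kap, 1.35 for Odc1, 0.96 for Nudt19 and 2.03 for Cyp4b1. It was 1.35 for Cyp2e1, 2.29 for Cyp2d9, 1.09 for Adh1, 1.44 for Cyp2a4, 1.05 for Hsd17b2, 1.15 for Hsd17b11, 0.76 for Akr1c21, 0.72 for Slc22a22 and 1.09 for Slco3a1. It was also 1.00 for Slc22a12, 0.90 for Slc17a3, 0.46 for Slc17a1, 1.10 for Car4, 0.52 for Ugt3a2, 0.87 for Ces1f, 0.94 for Acsm2, 0.50 for Akr1a1 and 1.44 for Cndp2. Other values were 1.64 for Acy3, 0.89 for Treh, 0.97 for Lap3, 0.53 for Mep1a, 0.79 for Ace, 0.58 for Slc22a6, 0.95 for Atp11a, 0.58 for Slc27a2 and 3.12 for Ftcd. The value was below 0 for the others, at -2.33 for Ugt1a2, -2.42 for Abcc3, -3.58 for Slc7a12, -2.91 for Prlr, -2.77 for Cyp4a14, -1.17 for Abcb1b, -0.95 for Abcc4, -0.79 for Slc15a2, -1.01 for Acot3, -1.04 for Aldh1a1 and -0.38 for Egf.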

How the results depend on the processing

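Against 1872 calls in the main comparison, the hepatocyte covariate gave 672 (378 higher in males, 294 in females), the comparison with 2 males, chosen after seeing the data, gave 714 (414 and 300) with fewer samples, and a test against an absolute log2 difference of 0.5 gave 448 (256 and 192) by its stricter criterion. Limma-voom gave 1836, DESeq2 2222, RLE scaling 1852, no filter on low counts 1857, a filter of 1 CPM in 1 kidney 2027, all chromosomes 1906, a fit of all 24 kidneys 2463, and leaving out Ctrl_M5 and Ctrl_F4, also chosen after seeing the data, 1698. Leaving out 1 kidney gave 1477 to 1932 calls, 783 to 1077 in males and 673 to 855 in females. DESeq2 called 182 genes with a negative change between genotypes, against 112 with edgeR. Of 132 named genes called in the main comparison, 91 stayed called with the hepatocyte covariate and 87 with 2 males. The stricter test against 0.5 kept 84. With the replicate number as a block, 1459 genes were called (750 and 709). The labels do not say whether the numbers pair the kidneys. Deviations of same-numbered kidneys correlated at -0.13 to 0.074 and 0 kidneys were closest to their own number, which cannot settle whether they were paired. The sign of the log2 difference turned for some named genes. With the covariate the values were 0.022 for Cyp4a10, -0.0086 for Ghr, 0.081 for Mcm6, -0.85 for Alb, -0.028 for Apoa2 and -0.96 for Ahsg. With 2 males they were 0.057 for Cyp4a10, -0.020 for Ghr, 0.12 for Mcm6 and -0.64 for Alb. Alb, Apoa2 and Ahsg are among the hepatocyte markers that define both settings, so their values there test nothing. Ace was at 0.0083 with DESeq2 and RLE scaling, 0.0065 with no filter, 0.0063 with the looser filter, 0.0055 in the fit of 24 kidneys and 0.076 without Ctrl_M5 and Ctrl_F4. Mcm6 was at 0.0020 with DESeq2 and 0.0026 with RLE scaling. With 1 kidney left out, Ghr ranged from -0.0023 to 0.10, Ace from -0.17 to 0.049, Tef from -0.20 to 0.015, Rsad2 from -0.19 to 0.016 and Mcm6 from -0.11 to 0.064. The causes were not tested. DESeq2 gave no adjusted p for Cyp4a14. In simulated control data 81 of 100 genes changed by a log2 of 1 were recovered and 29 of 100 changed by 0.5, so smaller differences were often not detectable at this size.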
